A study of Mus musculus with 8 samples.

Results

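The genes described here are the abundant transcripts that were higher in every aorta library from mice given DT-061 than in every vehicle library and that are not among a named set of contractile and signalling genes. They were picked from a table of 1329 genes by 3 conditions: the gene is protein coding, its mean level over the 8 libraries is at least 50 FPKM, and its lowest DT-061 value lies above its highest vehicle value. FPKM is a fragment count scaled to the length of the transcript and the size of the library. It is a share of the library, so a comparison between libraries also depends on their other transcripts. Differences under other scalings are given below. Of 132 protein coding genes with a mean of at least 50 FPKM, 86 had DT-061 values that all lay above the vehicle values. Of these 86, 18 were left out by name (Acta2, Myh11, Tagln, Cnn1, Myl9, Tpm1, Tpm2, Lmod1, Flna, Csrp1, Itga8, Pdlim3, Ppp1r12b, Ppp1r14a, Ppp2r1a, Id1, Thsd4 and Cytl1), and 68 remained. Because the deposited values of this comparison chose the 68 genes, their differences between the groups are given as descriptions, without a test. The genes are called non-contractile only because those names were left out: the set still holds Myl6, a light chain of myosin, and several proteins of actin filaments and focal adhesions.

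RNA was taken from the ascending aorta of Fbn1mgR/mgR mice, which under-express fibrillin-1 and are used as a model of Marfan syndrome. All mice carried this genotype, so no library shows the level in a normal aorta. From 5 weeks of age, mice received DT-061 at 5 mg/kg 2 times a day for 4 weeks, or only the N,N-dimethylacetamide, Kolliphor HS-15 and water solution in which it was given. DT-061 is a small molecule that activates protein phosphatase 2A, and the comparison asks which transcripts of the aneurysm-prone aorta differ when that phosphatase is activated. There were 4 libraries per group, and whether each was a different mouse is not stated in the labels.

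Smooth muscle cells of the aortic media contract by sliding actin over myosin, and they pass that force to the elastic matrix through focal adhesions, where LIM domain proteins such as zyxin sit. Their membrane carries many caveolae, small pits built from caveolins and cavins, and the cells also secrete matrix and signalling proteins. Protein phosphatase 2A removes phosphate groups from serine and threonine in many signalling proteins. Serum response factor, a regulator of many cytoskeletal genes of these cells, binds a short DNA element called the CArG box.

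Promoter sequence is shown for 5 of the genes, chosen after their values were seen, as examples of filament, adhesion and metabolic genes with a CArG box, TATAAA or TGACTCA near the start; other members also hold searched motifs. RefSeq windows on GRCm38.p6 were found for 50 of the 68 genes (69 windows, since some genes have more than 1 start). Each printed sequence is the 250 bases before a start on the strand of the gene. The starts of all 5 lie inside the annotated span of the gene. Of the 2 Myl6 windows, the printed one lies farther inside the gene, and the other holds no CArG box. Capitals mark the CArG box in Myl6 and Myom1, TATAAA in Vim and Gstm1, and in Zyx the reverse complement of TGACTCA, the element bound by AP-1 factors such as JunD. The Myl6 sequence (chr10:128493010-128493259, minus strand, 1 of 2 windows of the gene) has its CArG box starting 50 bases before the start:
Myl6: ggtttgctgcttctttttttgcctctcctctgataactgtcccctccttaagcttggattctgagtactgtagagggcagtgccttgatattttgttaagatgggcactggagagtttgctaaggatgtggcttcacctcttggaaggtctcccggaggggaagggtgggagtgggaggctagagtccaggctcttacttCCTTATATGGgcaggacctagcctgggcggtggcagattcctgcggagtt
Myom1 (chr17:71019307-71019556, plus strand, a start inside the annotated gene) has its CArG box 99 bases before the start:
Myom1: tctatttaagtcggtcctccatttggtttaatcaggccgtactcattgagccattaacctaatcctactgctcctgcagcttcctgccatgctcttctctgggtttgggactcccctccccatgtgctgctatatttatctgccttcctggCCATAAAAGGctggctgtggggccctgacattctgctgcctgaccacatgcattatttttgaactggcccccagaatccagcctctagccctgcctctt
Vim (chr2:13574061-13574310, plus strand) has TATAAA 32 bases before the start:
Vim: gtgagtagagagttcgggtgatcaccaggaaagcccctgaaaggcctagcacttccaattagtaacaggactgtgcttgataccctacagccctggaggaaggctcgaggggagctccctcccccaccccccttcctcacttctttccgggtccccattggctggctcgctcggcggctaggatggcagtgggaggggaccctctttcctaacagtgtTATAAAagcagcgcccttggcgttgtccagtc
Gstm1 (chr3:108017819-108018068, minus strand, 1 of 2 windows) has TATAAA 30 bases before the start:
Gstm1: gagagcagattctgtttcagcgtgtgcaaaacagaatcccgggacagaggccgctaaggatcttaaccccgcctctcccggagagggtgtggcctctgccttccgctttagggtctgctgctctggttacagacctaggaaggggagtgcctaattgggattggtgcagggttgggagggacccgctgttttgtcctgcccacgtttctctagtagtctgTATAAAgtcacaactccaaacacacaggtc
Zyx (chr6:42349578-42349827, plus strand) has its match 121 bases before the start:
Zyx: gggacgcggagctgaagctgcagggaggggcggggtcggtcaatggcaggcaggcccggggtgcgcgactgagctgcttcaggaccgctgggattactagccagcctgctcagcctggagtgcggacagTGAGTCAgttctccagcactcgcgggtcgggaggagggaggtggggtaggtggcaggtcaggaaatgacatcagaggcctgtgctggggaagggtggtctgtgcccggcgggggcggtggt

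The libraries held 14100000 to 22200000 fragments each, and some of them stood apart. DT-061 library 3 held the highest of the DT-061 values in 50 of the 68 genes, and Vehicle library 1 held the lowest of the vehicle values in 43. Immune cell transcripts also differed between libraries. The summed level of 6 B and plasma cell markers was 109, 116, 73.8 and 142 FPKM in DT-061 libraries 1 to 4 and 5639, 1284, 2292 and 244 FPKM in Vehicle libraries 1 to 4. By these markers, Vehicle library 4 was thus the nearest of the vehicle libraries to the DT-061 group. By the mean log2(FPKM + 1) of the 68 genes, Vehicle library 2 was the nearest, at 6.98 against 6.96 in Vehicle library 4. Ratios without DT-061 library 3 are given beside many of the genes in which it was the highest. Without both DT-061 library 3 and Vehicle library 4, the ratios of the 68 genes ran from 1.065 to 1.87 with a median of 1.33. In all 68 genes the 3 remaining libraries of each group did not overlap when both were left out, which the choice of genes already fixes.

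Across the 68 genes the ratio of the DT-061 mean to the vehicle mean ran from 1.08 to 2.25, with a median of 1.41 and the middle 50% of genes between 1.28 and 1.51. Only 2 genes reached a ratio of 2 and 18 reached 1.5, while 11 lay under 1.25. Without DT-061 library 3 the median ratio was 1.33, no gene reached 2 and 6 reached 1.5. On the scale of the mean log2(FPKM + 1), the median difference was 0.50, against a median of 0.47 over all 435 genes of the table that were higher with DT-061 and -0.58 over all 1329. Without Vehicle library 1 the median difference of the 68 genes was 0.43, and without DT-061 library 3 it was 0.41. The table as a whole held 400 genes (30.1%) whose DT-061 values all lay above the vehicle values and 641 (48.2%) whose values all lay below. Among its 132 protein coding genes with a mean of at least 50 FPKM, all DT-061 values lay above in 65.2%. These shares describe genes that the authors had already selected as different, and none is read as a result about the 68. Since a whole tissue was sequenced, fewer cells of a type and less RNA per cell cannot be told apart in any of these values.

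**Figure D1:**
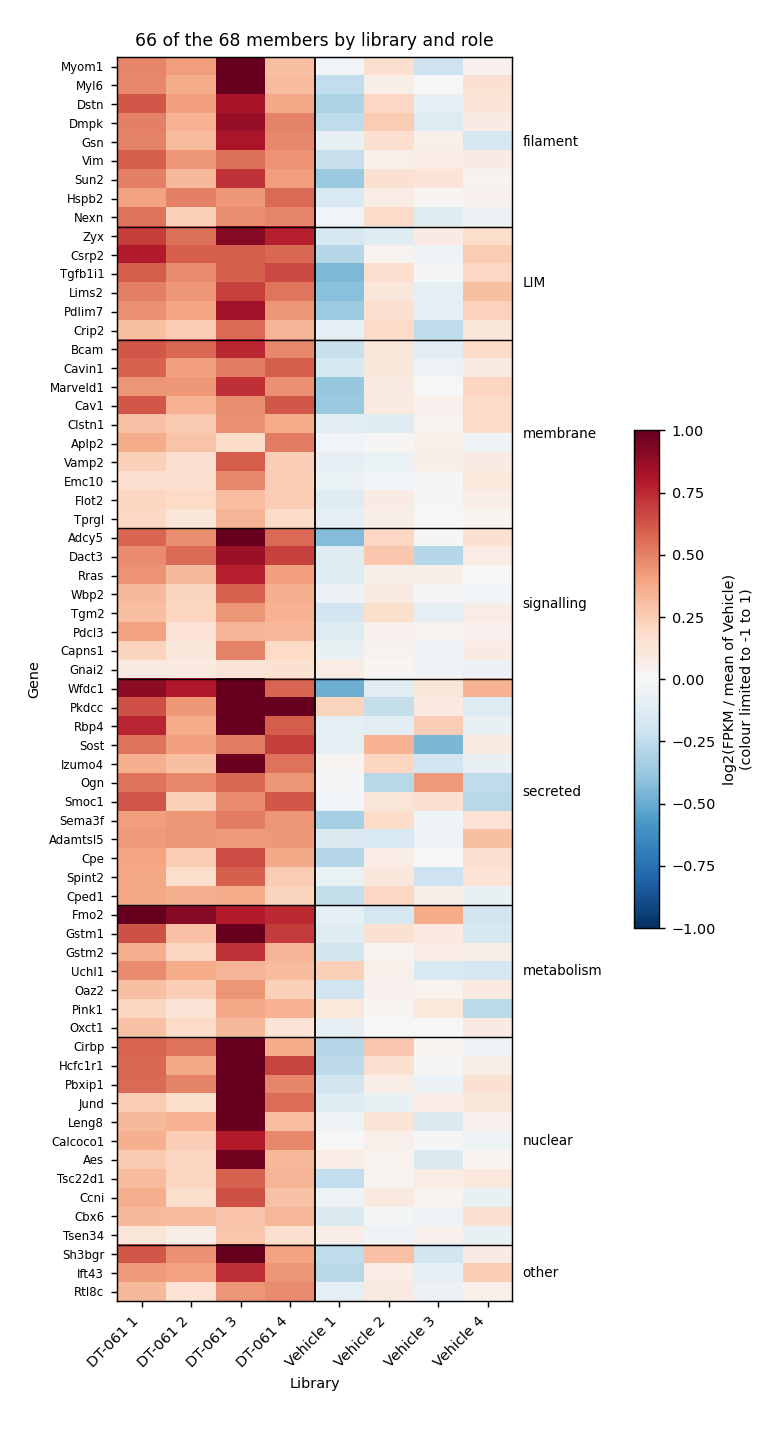
Each row is 1 gene (66 of the 68), grouped by role, and each column 1 library; colour gives log2 of the FPKM over the mean of the 4 vehicle libraries, limited to the range from -1 to 1. The DT-061 columns are red throughout because the genes were chosen so, and the column of DT-061 library 3 is the darkest in many rows of the filament, nuclear and secreted groups.

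The filament group held 10 genes, with ratios from 1.35 to 1.6 and a median of 1.47. The most abundant was Myl6, the light chain of myosin that is not phosphorylated, on chromosome 10 from 128490860 to 128494145. Its level was 2984, 2767, 4623 and 2663 FPKM in DT-061 libraries 1 to 4 and 1805, 2219.7, 2137 and 2378 FPKM in Vehicle libraries 1 to 4, or 3259 ± 919 against 2135 ± 242 FPKM (mean ± SD, n = 4), a ratio of 1.53. DT-061 library 3 stood far above the other 3 and carried much of that difference, since the ratio without it was 1.31. The intermediate filament protein vimentin (Vim, chromosome 2 from 13573927 to 13582826) showed no such DT-061 library. It had 3082, 2741, 2973 and 2765 FPKM with DT-061 and 1726, 2099.6, 2133 and 2144 FPKM with vehicle. Its means were 2890.4 ± 165 and 2026 ± 200.5 FPKM, a ratio of 1.43, and 1.41 without DT-061 library 3. Vehicle library 1 was the low one of its group in both genes, and in Vim it lay well below the rest of that group.

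Genes for 2 proteins that take actin filaments apart came next in level. Dstn, which encodes destrin, had 863, 743, 992 and 728 FPKM with DT-061 and 451, 646, 529 and 613 FPKM with vehicle, a ratio of 1.49 (1.39 without DT-061 library 3). Gsn, which encodes gelsolin, had 787, 694, 983 and 779 FPKM with DT-061 and 529, 628, 578 and 497 FPKM with vehicle, a ratio of 1.45 (1.35 without that library). In both, DT-061 library 3 was the highest of all 8. Dmpk, a serine and threonine kinase of muscle, had 553 ± 89.2 against 373 ± 58.3 FPKM, a ratio of 1.48 (1.37 without that library). Hspb2, a small heat shock protein of muscle that binds that kinase, had 58.9 ± 2.92 against 42.3 ± 2.92 FPKM and one of the tightest DT-061 groups, 55.95, 60.1, 57.2 and 62.4 FPKM.

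Other filament genes were at lower levels. Myom1 encodes myomesin, a crosslinker of the M band of striated muscle, and had 122, 116, 203 and 107 FPKM with DT-061 and 85.4, 97.02, 75.3 and 89.6 FPKM with vehicle. Its ratio of 1.57 became 1.32 without DT-061 library 3. Sun2, which ties the nuclear envelope to the cytoskeleton, had a ratio of 1.41, and Nexn, an actin filament binding protein, one of 1.35. Myom1 overlaps Myl12a and Hspb2 overlaps Cryab on the opposite strand. Among all the genes described here, 23 overlap an annotated gene on the opposite strand, and for 12 of them that gene is protein coding. Besides Myom1 and Hspb2, these 12 include Zyx, Lims2, Ogn, Hcfc1r1, Tprgl, Leng8, Tsen34, Tgm2 and Rtl8c. No source names the strand setting of the counting, so fragments of such pairs cannot be told apart.

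The 6 LIM domain genes had ratios from 1.29 to 1.67 and a median of 1.48. Csrp2, a LIM protein of smooth muscle, had 1606, 1401, 1407 and 1377 FPKM with DT-061 and 758, 950.3, 894 and 1102 FPKM with vehicle. Its means were 1448 ± 106 and 926 ± 142 FPKM, a ratio of 1.56, and DT-061 library 3 was not its high library. Zyx, which encodes zyxin (chromosome 6 from 42349630 to 42360213), had 414, 376, 486 and 439 FPKM with DT-061 and 230.1, 235, 271 and 289.7 FPKM with vehicle. The lowest of its DT-061 values was 1.3 times the highest vehicle value, a gap that only the monooxygenase gene Fmo2 among the 68 equalled, and its ratio was 1.67 with all libraries and 1.6 without DT-061 library 3. Tgfb1i1, a focal adhesion protein also known as Hic-5, had 134, 123, 134 and 140.0 FPKM with DT-061 and 64.9, 99.4, 87.9 and 102 FPKM with vehicle. Lims2 (PINCH-2) had a ratio of 1.46, Pdlim7 (enigma) of 1.46 and Crip2 of 1.29. Zyx overlaps Epha1 and Lims2 overlaps Gpr17 on the opposite strand, both of them genes of the same table, so those fragments cannot be told apart either.

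**Figure D2:**
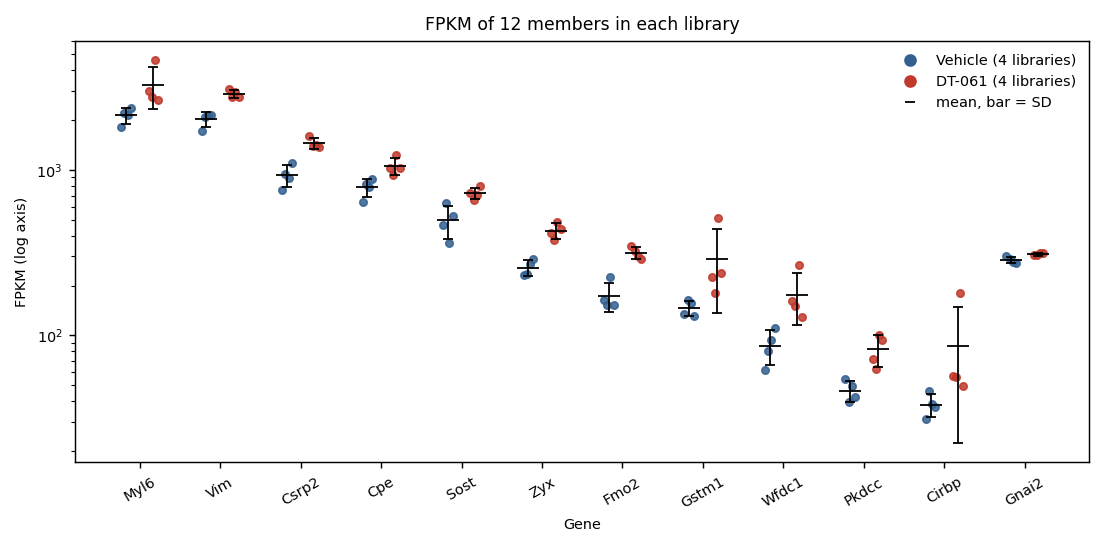
FPKM of 12 of the genes in each library on a log axis, vehicle in blue and DT-061 in red, with the mean and SD of 4 libraries per group. The groups lie apart in every gene; Vim has even DT-061 values, 1 DT-061 library is far above the rest in Myl6, Gstm1 and Cirbp, and in Gnai2 the groups nearly touch.

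The 10 membrane genes had smaller ratios, from 1.16 to 1.53 with a median of 1.27. Bcam, a laminin receptor, was the most abundant, with 571, 553, 628 and 518 FPKM under DT-061 and 319, 402, 344 and 421 FPKM under vehicle, a ratio of 1.53. Genes for 2 caveola proteins were close in size of difference and even across the DT-061 libraries. Cavin1, of the caveola coat, had 381, 337, 364 and 387 FPKM with DT-061 and 227, 274, 244 and 269 FPKM with vehicle. Cav1, the caveolin itself, had 266, 219, 238 and 265 FPKM with DT-061 and 133, 183, 178 and 196 FPKM with vehicle. Without DT-061 library 3 their ratios were 1.45 and 1.45, against 1.45 and 1.43 with it. Marveld1, a MARVEL domain protein, followed with 1.44.

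The other 6 membrane genes had ratios of at most 1.27. Aplp2, a relative of the amyloid precursor protein, had 261 ± 25.2 against 206 ± 5.8 FPKM, and it is the gene in which DT-061 library 3 lay farthest below the other DT-061 libraries, at 0.87 times their mean. Clstn1 (calsyntenin) had a ratio of 1.27, Vamp2 (a SNARE of secretory vesicles) of 1.25, and Emc10 (a subunit of a membrane protein insertion complex) of 1.2. Flot2, a flotillin of membrane rafts, had 66.1, 65.4, 70.4 and 67.6 FPKM with DT-061 and 51.9, 60.1, 56.05 and 59.4 FPKM with vehicle. Tprgl, a protein of synaptic vesicles, had 125 ± 7.92 against 107 ± 4.8 FPKM. Both of these last pairs of groups lie apart by a margin that is small beside their levels.

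Among 8 signalling genes the ratios ran from 1.08 to 1.6 with a median of 1.28. Adcy5, an adenylyl cyclase that makes cyclic AMP, had 163, 150.2, 220.1 and 161 FPKM with DT-061 and 80.4, 126, 108 and 121 FPKM with vehicle, a ratio of 1.6 (1.45 without DT-061 library 3). Gnai2, a G protein subunit that inhibits adenylyl cyclase, had 304, 305, 313 and 316 FPKM with DT-061 and 301, 289, 277 and 275 FPKM with vehicle. The difference in Gnai2 was the smallest of the 68 genes, and its lowest DT-061 value exceeded its highest vehicle value by a factor of 1.01. Rras, a small GTPase, had 409, 374, 512 and 398 FPKM with DT-061 and 273, 311, 313 and 299.7 FPKM with vehicle. Dact3, an antagonist of Wnt signalling, had 97.97 to 128 FPKM with DT-061 and 57.96 to 85.2 FPKM with vehicle. Capns1, the small subunit of calpain, had a ratio of 1.2, Wbp2, a WW domain binding protein, of 1.3, and Tgm2, a transglutaminase that crosslinks proteins, of 1.25. Pdcl3, a phosducin-like protein, had 59.6, 49.8, 57.02 and 56.99 FPKM with DT-061 and 41.4, 46.6, 46.03 and 46.6 FPKM with vehicle.

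The 12 genes for secreted proteins spanned 1.26 to 2.04 with a median of 1.42. Cpe, carboxypeptidase E, which trims prohormones, was the most abundant of them, with 1031, 937, 1232 and 1021 FPKM under DT-061 and 644, 827, 784 and 882 FPKM under vehicle. Sost, which encodes the Wnt inhibitor sclerostin, had 722, 659, 709 and 801 FPKM with DT-061 and 463, 629, 362 and 528 FPKM with vehicle, a ratio of 1.46. Here the vehicle libraries were the uneven group, and DT-061 library 2 lay only 1.05 times above Vehicle library 2. Wfdc1, a WAP domain protein, had 161, 151, 265 and 129 FPKM with DT-061 and 61.8, 79.9, 94.2 and 110.2 FPKM with vehicle. Its ratio was 2.04, 1 of the 2 that reached 2, and 1.7 without DT-061 library 3.

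Pkdcc, a secreted tyrosine kinase, had 72.3, 62.5, 101 and 94.2 FPKM with DT-061 and 54.1, 39.4, 49.6 and 42.3 FPKM with vehicle, a ratio of 1.78 (1.65 without DT-061 library 3). Rbp4, the plasma carrier of retinol, had 73.2, 55.99, 98.2 and 65.8 FPKM with DT-061 and 40.7, 39.98, 51.2 and 41.1 FPKM with vehicle, a ratio of 1.7 (1.5 without that library). DT-061 library 3 was the highest of all in both genes. Among matrix proteins, Smoc1, a relative of SPARC, had 163 ± 20.05 against 115 ± 15.04 FPKM. Osteoglycin (Ogn), a small proteoglycan, had 155, 149, 159 and 145 FPKM with DT-061 and 105, 88.2, 143 and 89.6 FPKM with vehicle, so that Vehicle library 3 came within 1.01 times of the lowest DT-061 value. Adamtsl5, an ADAMTS-like protein, had the most even DT-061 group of all 68 genes, 84.3, 85.2, 84.4 and 85.01 FPKM, against 56.8, 56.6, 60.6 and 77.5 FPKM with vehicle. Sema3f, a semaphorin, had a ratio of 1.37, Spint2, a protease inhibitor, of 1.29, Cped1 of 1.26 and Izumo4, of the IZUMO family, of 1.48 (1.32 without DT-061 library 3). DT-061 library 3 was the highest for Cpe, Wfdc1, Pkdcc and Rbp4 and not for Sost, Smoc1 or Cped1.

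The 8 genes of metabolism and protein turnover had ratios from 1.18 to 1.98 with a median of 1.31. Fmo2, a flavin-containing monooxygenase on chromosome 1 from 162874317 to 162898726, had 347, 325, 300.4 and 291 FPKM with DT-061 and 163, 154, 224 and 153 FPKM with vehicle. Its ratio was 1.82, and 1.85 without DT-061 library 3, the largest of the 68 genes when that library is left out. Gstm1, a glutathione S-transferase, had 227, 179, 513 and 236 FPKM with DT-061 and 134, 163, 156 and 131 FPKM with vehicle. Library 3 was 2.40 times the mean of the other DT-061 libraries there, and without it the ratio went from 1.98 to 1.47. Its neighbour Gstm2, of the same enzyme family, 25801 bases away on chromosome 3, had 166, 149, 212 and 163 FPKM with DT-061 and 113, 132, 136 and 134 FPKM with vehicle. How alike the 2 transcripts are was not measured here, and any fragments that match both genes could have been divided between them in the counting.

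Oxct1, an enzyme that uses ketone bodies, had 113, 106, 116 and 101 FPKM with DT-061 and 87.2, 92.9, 92.1 and 98 FPKM with vehicle. Among the others, Uchl1, a ubiquitin hydrolase, had a ratio of 1.3. Oaz2, an inhibitor of polyamine synthesis, had a ratio of 1.24, and Pink1, a kinase of damaged mitochondria, of 1.21. Uchl1 is also 1 of 3 genes of the table on a list of Schwann cell and neuron markers. Of the other 2, Ncam1 rose, from 14.98 ± 2.93 FPKM with vehicle to 24.6 ± 6.4 FPKM with DT-061 (limma with Benjamini-Hochberg adjustment, adjusted p = 0.018), and Tubb3 fell, from 5.26 ± 1.998 to 1.37 ± 0.50 FPKM (adjusted p = 0.014).

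The 11 genes of nuclear and RNA-related proteins held the largest ratio and the largest share of DT-061 library 3. Cirbp, the cold-inducible RNA binding protein on chromosome 10 from 80165985 to 80172786, had 57.03, 55.6, 181 and 49.3 FPKM with DT-061 and 31.2, 45.9, 38.6 and 36.8 FPKM with vehicle. DT-061 library 3 was 3.35 times the mean of the other 3, and the ratio of 2.25 was 1.42 without it. Jund, an AP-1 transcription factor, had 79.8, 75.5, 146 and 98.5 FPKM with DT-061 and 61.5, 63.6, 70.6 and 72.3 FPKM with vehicle, and a ratio of 1.49 that became 1.26. Aes, a Groucho family corepressor, went from 1.39 to 1.21 and Leng8 from 1.46 to 1.26 when that library was left out. The median excess of DT-061 library 3 over the other DT-061 libraries was 1.49 in the nuclear group, against 1.11 to 1.29 in the other groups of role.

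Pbxip1, a protein that binds PBX transcription factors, had 240.5, 229.9, 347 and 228 FPKM with DT-061 and 143, 171, 156 and 181 FPKM with vehicle. Hcfc1r1, a regulator of host cell factor, had 136, 119, 201 and 147 FPKM with DT-061 and 76.3, 102, 92.3 and 95.1 FPKM with vehicle. Tsc22d1, a leucine zipper protein induced by TGF-beta, had 59.9, 55.7, 72.2 and 60.8 FPKM with DT-061 and 40.5, 49.3, 50.5 and 51.7 FPKM with vehicle. All 3 had their highest value in DT-061 library 3. Without it the ratio went from 1.61 to 1.43 for Pbxip1, from 1.64 to 1.46 for Hcfc1r1 and from 1.3 to 1.23 for Tsc22d1. Calcoco1, a coiled-coil coactivator, had a ratio of 1.4, Ccni (cyclin I) of 1.3 and Cbx6, a Polycomb protein with very even DT-061 values (59.1 to 61.2 FPKM), of 1.24. Tsen34, a subunit of the tRNA splicing endonuclease, had 51.4, 49.6, 57.2 and 52.8 FPKM with DT-061 and 49.5, 46.1, 48.8 and 44.8 FPKM with vehicle. It lay nearest to both limits of the rule, with a mean of 50.04 FPKM and DT-061 values that cleared the vehicle values by a factor of 1.002.

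The last 3 genes fit none of these groups. Sh3bgr, an SH3 domain binding protein, had 94.1, 83.8, 184 and 81.1 FPKM with DT-061 and 51.4, 74.9, 53.9 and 64.7 FPKM with vehicle, and its ratio of 1.81 was 1.41 without DT-061 library 3. Ift43, a part of the transport machinery of cilia, had a ratio of 1.42. Rtl8c, a gene derived from a retrotransposon on the X chromosome, had one of 1.28. Rtl8c had the fewest fragments of the 68 genes, with 343 in its lowest library, where counting error alone has an SD of 5.4%. For Vim, with 132473 in its lowest library, that SD is 0.275%.

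Just outside the limits, Dctn1 and Npr1 met the other conditions with means of 49.8 FPKM each. Iscu and Hnrnpl missed because their lowest DT-061 value was 0.990 and 0.996 times their highest vehicle value.

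The genes did not share 1 pattern within the DT-061 group. In 10 of them, DT-061 library 3 was at least 1.5 times the mean of libraries 1, 2 and 4: Cirbp, Gstm1, Sh3bgr, Wfdc1, Myom1, Jund, Myl6, Leng8, Aes and Rbp4. In 11 it was below that mean, as in Csrp2, Sost, Cavin1, Fmo2, Aplp2 and Cav1 among the more abundant ones. Without that library, 6 genes kept a ratio of at least 1.5: Fmo2 at 1.85, Wfdc1 at 1.7, Pkdcc at 1.65, Zyx at 1.6, Csrp2 at 1.58 and Rbp4 at 1.5. The spread within the groups was much the same with all libraries, a median coefficient of variation of 10.8% with DT-061 and 11.2% with vehicle. It was 5.96% with DT-061 once library 3 was left out. Leaving out the library that was most often the highest can lower this spread by itself. The 5.96% is therefore not set against the vehicle value, which kept all its libraries. Across the 68 genes the excess in library 3 had a weak correlation with the GC content of the transcripts (r = 0.17) and with the length of the exons (r = -0.17). Both are given as descriptions of genes that come from the same libraries.

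**Figure D3:**
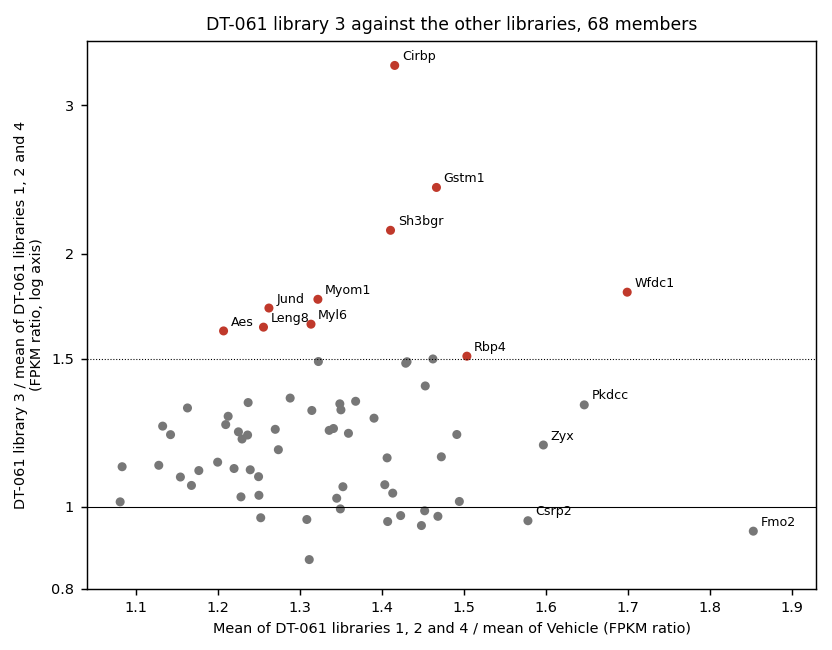
Each point is 1 of the 68 genes: the horizontal axis is the mean FPKM of DT-061 libraries 1, 2 and 4 over the vehicle mean, and the vertical axis, on a log scale, is DT-061 library 3 over the mean of libraries 1, 2 and 4. The 10 red points lie above the dotted line at 1.5, up to 3.35 for Cirbp, while Fmo2, with the largest horizontal value of 1.85, lies below 1.

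The mean level of the 68 genes had the same order of libraries as that of the 18 contractile and other genes left out by name. Both sets met the same condition on the groups, so that both were higher with DT-061 is fixed by the choice. Only the order within each group is not, and single genes differed from it. The mean log2(FPKM + 1) of the 68 genes was 7.36, 7.25, 7.62 and 7.34 in DT-061 libraries 1 to 4 and 6.76, 6.98, 6.89 and 6.96 in Vehicle libraries 1 to 4. That of the 18 left-out genes was 8.95, 8.83, 9.26 and 8.89 in the DT-061 libraries and 7.98, 8.48, 8.29 and 8.43 in the vehicle libraries. DT-061 library 3 was the highest and Vehicle library 1 the lowest in both. The difference between the group means was 0.49 for the 68 genes and 0.69 for the left-out genes, so the 68 genes had the smaller difference, by 0.19 on the log2 scale. By recovered fragments, the 68 genes made up 7.23 ± 0.82% of a DT-061 library and 5.00 ± 0.43% of a vehicle library (n = 4 each), and the 18 left-out genes 7.004 ± 1.21% and 4.32 ± 0.74%.

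Relative to the left-out genes, which met the same condition on the groups and so were chosen to be higher with DT-061, the difference was larger in 9 of the 68 genes and smaller in 59, by up to 0.57 in Gnai2. That is a comparison of sizes and says nothing of direction. The 9 genes with a larger difference were Wfdc1 (0.32), Cirbp (0.26), Fmo2 (0.20), Gstm1 (0.18), Pkdcc (0.13), Sh3bgr (0.10), Zyx (0.05), Rbp4 (0.05) and Hcfc1r1 (0.01), in log2 units. The median of these relative differences over the 68 genes was -0.18. With other scalings of the libraries, the median difference went from 0.50 as deposited to 1.34 after rescaling to a common median of the table's genes. With quantile normalization it was 0.53. Most genes of the table were lower with DT-061, so a common median raises the differences by its construction. The groups lay apart in 68 of the 68 genes after median rescaling and in 45 after quantile normalization. After the latter, 1 gene had a lower mean with DT-061, Myl6, the most abundant, at -0.02.

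**Figure D4:**
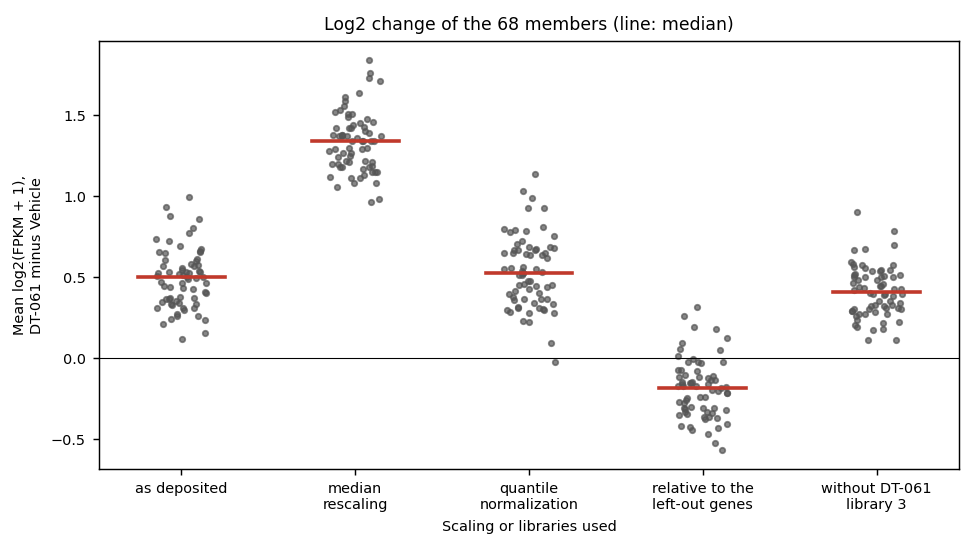
Each point is 1 of the 68 genes and the red line their median; the vertical axis is the difference of the mean log2(FPKM + 1), DT-061 minus vehicle. The median lies at 0.50 as deposited, 1.34 after median rescaling, 0.53 after quantile normalization, -0.18 relative to the 18 left-out genes, which were themselves higher by the same condition, and 0.41 without DT-061 library 3.

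Markers of other cells differed between the groups as well. For genes outside the 68, the test was limma on log2(FPKM + 1) with Benjamini-Hochberg adjustment over the 1329 genes, with rose and fell used of an adjusted p under 0.05. Of the 1329 genes, 404 (30.4%) rose and 864 (65.0%) fell, in a table that the authors had selected on this comparison. These p-values set each difference against the spread between libraries, which may in part be technical. Because the genes had already been selected on this comparison, passing was largely fixed beforehand. The adjusted p-values here and for single genes are descriptions and no independent support. Of 10 smooth muscle markers, the table held 5 (Myh11, Acta2, Tagln, Cnn1 and Lmod1, each left out by name), and all 5 rose. Their summed level was 14398, 12732, 18068 and 13663 FPKM in DT-061 libraries 1 to 4 and 7094, 11387, 8712 and 10190.3 FPKM in Vehicle libraries 1 to 4. The library order was that of the 68 genes at its ends, with DT-061 library 3 the highest and Vehicle library 1 the lowest. These markers were thus abundant in every library of the labelled ascending aorta.

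The 6 B and plasma cell markers in the table all fell, and in the 68 genes the library with most of these transcripts, Vehicle library 1, was most often the lowest of its group. Both macrophage markers in the table fell (Mpeg1, a lytic protein of phagocytes, and Aif1), with a summed level of 4.31 to 19.6 FPKM with DT-061 and 19.6 to 83.3 FPKM with vehicle. Of 11 T and NK cell markers, 10 fell and 1 did not pass, with sums of 2.99 to 9.69 FPKM and 7.73 to 86.4 FPKM. The adipocyte markers Cfd and Retn fell, with sums of 74.1 to 335 FPKM and 498 to 1417 FPKM. Of 3 fibroblast markers in the table, Lum and Ly6a fell, and Gsn is one of the 68. The sums of all 3 were 954 to 1161 FPKM with DT-061 and 846 to 1061 FPKM with vehicle. Most of each sum was Gsn (means of 811 FPKM with DT-061 and 558 FPKM with vehicle), which was chosen as higher. The mean of Lum was 106.3 FPKM with DT-061 and 186.5 FPKM with vehicle, and that of Ly6a was 120.5 and 239.4 FPKM. Lum and Ly6a also fell after quantile normalization, while after rescaling to a common median neither passed and Lum was at 0.05. None of 14 endothelial, 15 heart muscle or 7 erythroid markers was among the genes of the table, and the 1 skeletal muscle marker in it, Myl1, was at 1.08 to 7.71 FPKM and fell. The part of these cell types in the levels of the 68 genes was not tested.

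**Figure D5:**
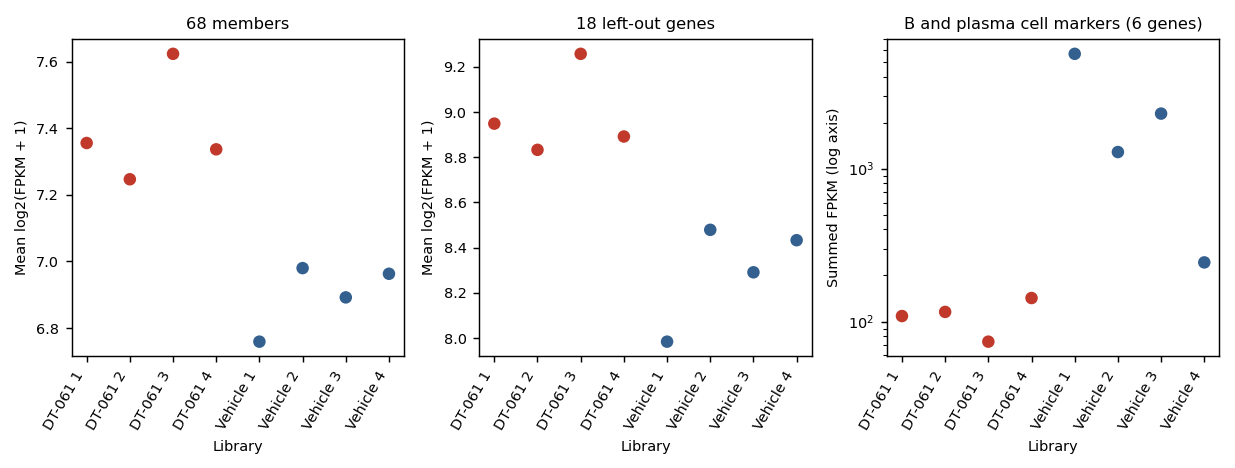
Each point is 1 library, DT-061 in red and vehicle in blue: the mean log2(FPKM + 1) of the 68 genes (left), the same of the 18 genes left out by name (middle) and the summed FPKM of 6 B and plasma cell markers on a log axis (right). DT-061 library 3 is the highest in the left and middle panels (7.62 and 9.26) and the lowest on the right (73.8 FPKM), and Vehicle library 1 is the reverse (6.76, 7.98 and 5639 FPKM).

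Other genes of the same pathways were taken from 17 lists of function. These lists had 57 genes in the table, of which 23 are among the 68, and 45 of the 68 are on no list. Of the 34 others, 12 rose, 20 fell and 2 did not pass, with a median log2 difference of -0.48 against -0.58 over the whole table. The falls depend on the scaling: after rescaling to a common median, limma called 13 of the 34 higher and 0 lower (2 lower at an unadjusted p under 0.05), and after quantile normalization 11 higher and 10 lower. The list of actin and myosin regulators has 81 names, of which 14 were in the table. Of these 14, 12 are among the 68 (Myl6, Vim, Dstn, Gsn, Nexn, Csrp2, Crip2, Zyx, Lims2, Pdlim7, Cavin1 and Cav1), beside 68 of all 1329 genes of the table. The list was drawn up with earlier results of these data known, so this count is not read as a result about the pathway. The other 2 of the 14 went the other way. Tpm3, a tropomyosin found in many cell types, fell from 121 ± 9.54 FPKM with vehicle to 82.5 ± 11.01 FPKM with DT-061 (limma, adjusted p = 0.016). Tmsb10, a thymosin that binds actin monomers, fell from 192 ± 19.7 to 148 ± 8.34 FPKM (limma, adjusted p = 0.018). After rescaling to a common median, which shifts every gene of a library alike, neither passed and the differences were 0.29 for Tpm3 and 0.48 for Tmsb10 in log2 units. After quantile normalization Tpm3 still fell (-0.52, adjusted p = 0.020), and Tmsb10, at -0.12, did not pass (adjusted p = 0.50).

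Among genes of oxidant defence, Gstm1 and Gstm2 stand beside Nqo1, a quinone reductase, and Gpx3, the glutathione peroxidase of plasma. Nqo1 rose from 8.61 ± 1.05 to 12 ± 1.77 FPKM (limma, adjusted p = 0.022), a call that was lost without DT-061 library 1 (adjusted p = 0.053) and with both DT-061 library 3 and Vehicle library 4 left out (adjusted p = 0.067). Gpx3 fell from 387 ± 56.4 to 192 ± 76.8 FPKM (limma, adjusted p = 0.020). Of 8 genes of matrix and secreted proteins in the table, Smoc1 and Ogn are among the 68. Ecm2 rose, from 26.3 ± 4.44 to 40.7 ± 4.1 FPKM, and 5 fell. The largest of these 5 differences was in Timp1, an inhibitor of matrix metalloproteinases, from 186 ± 73.8 to 60.9 ± 22.5 FPKM (limma, adjusted p = 0.017), followed by Apoe, the lipid carrier, from 2109 ± 681 to 933 ± 260.2 FPKM (limma, adjusted p = 0.018).

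In the list of cyclic nucleotide and G protein signalling, Adcy5 and Gnai2 stand beside 4 other genes. Adra1d, an alpha-1 adrenergic receptor, rose from 11.8 ± 5.31 to 24.2 ± 6.45 FPKM (limma, adjusted p = 0.020). Npr1, a natriuretic peptide receptor that makes cyclic GMP, rose from 45.9 ± 2.66 to 53.6 ± 3.44 FPKM (limma, adjusted p = 0.032), and this call was lost in 9 of the alternatives. Rgs2, which turns off G protein signals, fell (adjusted p = 0.022), and Pde1c, a phosphodiesterase, did not pass (adjusted p = 0.079). Of the TGF-beta list, Tsc22d1 and Tgfb1i1 are among the 68, and Bambi, a pseudoreceptor of that pathway, rose from 4.57 ± 0.54 to 5.98 ± 0.58 FPKM (limma, adjusted p = 0.034).

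The table held only 5 genes of the chaperone and proteasome list, and those other than Hspb2 fell. They were the immunoproteasome subunits Psmb8, Psmb9 and Psmb10, which are known from immune cells, and Hspa5, a chaperone of the endoplasmic reticulum. Psmb8 went from 15.1 ± 6.65 to 5.54 ± 1.54 FPKM and Psmb10 from 31.5 ± 9.01 to 16.4 ± 3.62 FPKM (limma, adjusted p = 0.018 and 0.017). Beside Jund, the transcription factors Meis1 and Nfia rose and Bhlhe40 fell, the last from 26.1 ± 9.79 to 8.71 ± 2.07 FPKM (limma, adjusted p = 0.014). Of the membrane protein list, Atp1b2, a subunit of the sodium pump, rose from 20.5 ± 2.83 to 34.6 ± 10.3 FPKM and Fxyd6, a regulator of that pump, fell from 25.2 ± 3.28 to 13.2 ± 1.35 FPKM (limma, adjusted p = 0.018 and 0.011).

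The glycolysis list had 2 genes in the table, which both rose: Pfkp, a phosphofructokinase, from 28.5 ± 3.23 to 37.7 ± 6.59 FPKM (limma, adjusted p = 0.028) and Phkg1, a phosphorylase kinase subunit. The call of Pfkp was lost in several alternatives, among them leaving out DT-061 library 3 and Vehicle library 4. Agrn, a basement membrane proteoglycan, rose from 20.6 ± 2.11 to 29.6 ± 8.22 FPKM (limma, adjusted p = 0.031), a call that did not hold without Vehicle library 1 (adjusted p = 0.07), 3 (0.054) or 4 (0.054), and Fbn2 fell at a level under 1 FPKM. Of 6 lipid genes 5 fell and Fabp3 did not pass (adjusted p = 0.057). Ndufaf4, an assembly factor of the respiratory chain, fell. No gene of the lists of ribosomal proteins, translation factors, the tricarboxylic acid cycle or calcium handling was in the table, and of the list of RNA binding proteins it held only Cirbp.

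The positions and structures of the 68 genes were compared with other genes of the table as descriptions. GC content was taken over all annotated transcripts of a gene, weighted by their length. Their exons together had a median length of 3193 bases and their transcripts a median GC content of 56.6%. These medians were 4999 bases and 53.7% for the 314 other protein coding genes that were higher with DT-061, and 4014 bases and 50.7% for 816 that were lower. The 38 lower genes with a mean of at least 50 FPKM had shorter exons, 2293 bases, and 53.1% GC. Chromosome 7 held 10 of the 68 genes (14.7%), against 8.39% of the protein coding genes of the table. Besides Gstm1 and Gstm2, close neighbours were Gnai2 and Sema3f, 46132 bases apart on chromosome 9, and Sun2 and Cbx6, 81359 bases apart on chromosome 15. On chromosome 10, Cirbp, Adamtsl5, Izumo4 and Aes lie in a row with 166323, 353771 and 854114 bases between them. DT-061 library 3 was 3.35 times the mean of the other DT-061 libraries for Cirbp, 1.62 times for Aes and 1.49 times for Izumo4, and level with them for Adamtsl5, at 0.99 times.

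In the 69 promoter windows, each 300 bases long (250 before the start and 50 after), 8 motifs were searched on both strands and set beside all 32851 RefSeq windows of that length. GGGCGG, the box of Sp factors, was found in 59.4% of the windows of these genes, in 66.7% of the 18 windows of left-out genes, in 46.2% of the 806 windows of genes lower with DT-061 and in 35.7% of all windows. The windows were also richer in GC, with a median of 61.3% against 52.7%, and letters made of G and C are found more often in such sequence. The CArG box was found in 2.90% of the windows, those of Myl6 and Myom1 shown above, and in 1.63% of all windows. TATAAA was found in 11.6% (13.6% of all), CCAAT in 40.6% (37.4%), CACGTG in 5.80% (7.15%), TGACNNNGC in 11.6% (12.4%) and CATTCC in 11.6% (14.7%). TGACTCA was found in 4.35% of the windows, those of Zyx, Leng8 and Rbp4, and in 5.20% of all. A match describes the letters of a window and not a site that is known to be bound. The 18 genes with no window include Csrp2, Cpe, Gnai2, Aes, Lims2, Smoc1, Wfdc1, Tgm2, Tgfb1i1, Vamp2, Sh3bgr, Nexn, Sema3f, Izumo4, Hspb2 and Pdcl3.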

How the data were processed

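Poly-A RNA of 8 ascending aorta samples was sequenced as paired-end reads, per the labels' protocols. The authors deposited FPKM for the 1329 genes that they selected as significant between the groups, per the file headers and its deposited name; no source names their test and threshold. The tools were HISAT2 2.0.5, featureCounts 1.5.0-p3 and StringTie 1.3.3b, with build mm10, and their order is not given, per the submitters' processing notes. Symbols were matched for 1328 genes, and 1216 are protein coding by GENCODE M21 (GRCm38, which is mm10).

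Low FPKM values, multiplied by exonic length, fell on steps that gave the depth: 14100000 to 22200000 fragments per library, with 91.2% to 100% of 34 to 62 low values per library within 0.03 of a whole number. FPKM fixes neither which fragments were counted in the total nor the lengths the authors used.

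The members, the gene lists and the tests were chosen with earlier results of these data known. The groups were taken from the labels, and limma 3.58.1 (trend and robust options, R 4.3.3) was run on log2(FPKM + 1) of all 8 libraries with treatment as the only term and Benjamini-Hochberg adjustment over 1329 genes, at 0.05. A difference on this scale understates that of low genes. It was tested on simulated data. Ratios are of group mean FPKM. Named members were the most abundant, those with the largest or smallest difference or gap between groups, those nearest the limits, and up to 3 of each list; genes outside were up to 2 of each list with the largest difference; all other genes are named by their role or by a count. Alternatives were another pseudocount (0.1), a minimum mean of 1 FPKM, limma without those options, rescaling to the median, quantile normalization, a replicate block, leaving out libraries and minimum means of 25 and 100 FPKM. Rescaling to the left-out genes was added after seeing the data. The values of 2 of the 68 genes are not reported here; counts and medians over the 68 include them.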

Additional observations from a re-analysis of the deposited data

Results flagged for a closer look

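The limit used for how far the highest or lowest of 4 values lies from the others is passed by about 1 in 20 groups of independent normal values. The genes here share the same 8 libraries and were picked partly by the size of their differences and gaps. Their count is therefore not compared with that rate. In 72 groups of 4 libraries (36 named genes in both groups), 10 had a highest or lowest library past that limit. In 4 of these, DT-061 library 3 was the high one: Myl6 at 4620 FPKM against 2660 to 2980 in the other DT-061 libraries, Cirbp at 181 FPKM against 49.3 to 57.0, Sh3bgr at 184 FPKM against 81.1 to 94.1 and Pbxip1 at 347 FPKM against 228 to 240. Csrp2 had its high value in DT-061 library 1, 1610 FPKM against 1380 to 1410. Vehicle library 1 was the low one for Vim (1730 FPKM against 2100 to 2140), Gstm2 (113 FPKM against 132 to 136) and Pdcl3 (41.4 FPKM against 46.0 to 46.6). Vehicle library 3 was the high one for Fmo2 (224 FPKM against 153 to 163) and Rbp4 (51.2 FPKM against 40.0 to 41.1). Over all 68 genes, DT-061 library 3 stood out as highest in 11, DT-061 library 1 in 1, Vehicle library 1 as lowest in 3 and Vehicle library 3 as highest in 2.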

How the results depend on the processing

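Other scalings moved the median log2 difference of all genes by 0.68 (median rescaling), 0.56 (quantile normalization) and -0.54 (rescaling to the left-out genes). The median of the 68 genes was 0.50 as deposited, 1.34 after median rescaling and -0.181 relative to the left-out genes, where none of the 68 kept groups apart (0 genes met the rule); those genes were chosen by the same condition, so that scale removes the difference by its construction. Genes that met the rule numbered 126 at a minimum mean of 25 FPKM and 39 at 100 FPKM. Calls of falling genes went from 864 to 298 (median rescaling) and 210 (quantile), and of other list genes that fell from 20 to 0 and 10. Both scalings make the libraries alike over selected genes that were mostly lower with DT-061, so this loss is in part built in. Calls that rose numbered 404 as deposited, 434 after median rescaling and 394 after quantile normalization, so their share of all calls (31.9%, 59.3% and 65.2%) moved with the falling calls. Signs reversed for Lum (0.0514), Tmsb10 (0.475) and Tpm3 (0.286) after median rescaling, which multiplies all genes of a library by 1 factor. The sign of Myl6 reversed after quantile normalization (-0.0244), and the cause of that was not tested. Leaving out each library gave 254 to 351 rising genes (main 404, lowest without Vehicle library 3), 652 to 881 falling, 8 to 12 and 16 to 20 other list genes, a median of 0.412 to 0.543 and 64 to 75 genes that met the rule. The deviations of same-numbered libraries from their group means had r = 0.18, -0.11, -0.05 and -0.47. Libraries with different numbers had r from -0.481 to 0.453. With 4 libraries per group, these values cannot decide whether the numbers pair libraries. With the replicate number as a block, rising genes numbered 204 and falling 630, and other list genes 5 and 16. Lum, Ncam1, Nfia, Npr1 and Pfkp then lost their call.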
